A study of Homo sapiens with 6 samples.

Results

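Cytosolic protein synthesis runs on a small set of soluble factors, and the level of their mRNAs was followed here in human cells labelled as wild type and as lacking the uridylyltransferases TUT4 and TUT7. Members were the protein-coding genes of the count table whose symbols begin with EIF1 to EIF6, EEF1, EEF2, ETF1 or GSPT1, leaving out the eIF4E-binding proteins (EIF4EBP) and the eIF2 kinases (EIF2AK), with a mean estimated count of 50 or more over the 6 libraries. Of the 30270 genes in the table, 64 matched by symbol and 63 passed the minimum. EIF4E1B, with a mean count of 2.0, fell under it, and EEF1AKMT4, with a mean count of 110.5, was the lowest member inside it. The symbols also brought in genes that act on the factors and not as factors, such as the methyltransferases of eEF1A (EEF1AKMT), and EIF1AD, a gene named for its eIF1A-like domain, so each is described under its own role.

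HEK 293T is a human embryonic kidney line that carries the SV40 large T antigen. Total RNA was depleted of ribosomal RNA and sequenced from 3 wild-type (WT) cultures and from 3 cultures of a TENT3A/B double knockout, called ΔTUT4/7 here after the study's name for it (TENT3A and TENT3B are other names of TUT4 and TUT7). Both groups were grown in the same serum-containing medium and the labels list no treatment for either. The knockout line was a gift from another laboratory, and whether it is a single clone is not given in the sources used here. The replicates of a group are therefore cultures of 1 line, the p-values measure the spread between such cultures, and the 2 lines may differ by their history as well as by their genotype. The libraries held 18757228 to 33148937 estimated counts. TUT7 was lower in the libraries labelled ΔTUT4/7 (62.6 against 26.3 CPM, counts relative to the scaled library total), but the count of TUT4 went against the label, at 211 ± 5.08 CPM (SD, n = 3) in WT and 906 ± 21.4 CPM (SD, n = 3) in ΔTUT4/7, so every direction below is that of the libraries labelled ΔTUT4/7 over WT. Of the markers of the line that are reported here, NEFL stood at 352 and 105 CPM in WT and ΔTUT4/7, while PAX2 (2.15 and 1.45 CPM) and LHX1 (3.91 and 1.96 CPM) were low. Of the genes of other cell types, ALB had at most 7 counts and PECAM1 at most 4 counts in a library, and PTPRC and CD3E were not among the genes of the table.

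Initiation begins when eIF2, carrying GTP and the initiator tRNA, joins the small ribosomal subunit together with eIF1, eIF1A, eIF5 and the large scaffold eIF3. The mRNA is brought in by eIF4F, in which eIF4E binds the cap, eIF4A unwinds the leader and eIF4G holds them together, and eIF2B recycles the eIF2 that leaves in its GDP form. During elongation eEF1A delivers aminoacyl-tRNAs, eEF1B recharges it, eEF2 moves the ribosome along the message, and ETF1 with GSPT1 ends the chain. Many of the mRNAs for these proteins begin with a 5′ terminal oligopyrimidine (TOP) tract, which couples their translation to mTOR.

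Most of the factors differed between the groups, and more of them were higher than lower. By edgeR's quasi-likelihood test at a false discovery rate (FDR, the Benjamini-Hochberg adjusted p over all 23952 genes tested) under 0.05, 38 of the 63 members were higher and 12 were lower in the libraries labelled ΔTUT4/7, and 13 did not pass. The libraries are bulk RNA, in which a lower level in each cell and fewer cells with the mRNA cannot be told apart. Among all tested genes 57.7% passed in either direction, 28.6% as higher and 29.0% as lower. The members are abundant mRNAs, so the closer background was the 12447 protein-coding genes that reached the same minimum count of 50, of which 74.4% passed, 42.7% as higher and 31.7% as lower. With that minimum raised to 1000, 53 members and 5633 protein-coding genes remained. Of these members 32 were higher and 10 lower (60.4% and 18.9%), and of these genes 51.6% were higher and 28.4% lower.

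The 3 values of one group lay wholly above or below those of the other in 51 members, 40 of them higher and 11 lower, beside 77.3% of the protein-coding background, 44.3% as higher and 33.0% as lower. Over the members the log2 fold change had a median of 0.34, against −0.02 over all tested genes and 0.08 over the background. Differences of at least 2-fold that passed the FDR were found in 7 members. EIF2B1, EIF4G1, EIF4G2, EIF5, EIF5A and EIF5AL1 were higher and EIF4E3 was lower, beside 5.74% and 7.42% of the same protein-coding genes. Scaling by library size alone or by the upper quartile, in place of the trimmed mean of M-values (TMM), moved the median of all genes from −0.02 to −0.13 and −0.12 and the count of members to 34 higher and 16 lower under each. An offset for GC content and length moved the median of all genes to 0.09 and gave 46 higher and 5 lower members, and the 5 were EIF3L, EIF4E, EIF4E3, EIF4ENIF1 and EIF4G3. The calls of the other 7 lower members (EIF2A, EIF2S3, EIF2S3B, EIF3D, EEF2, EEF2K and EEF1AKMT3) ended under that offset, with adjusted p from 0.124 for EIF2A to 0.606 for EIF3D. The 8 members that edgeR called higher with the offset and not in the fit with TMM scaling alone were EEF1A1, EIF1, EIF2B4, EIF3C, EIF3E, EIF3F, EIF3H and EIF5A2.

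**Figure D1:**
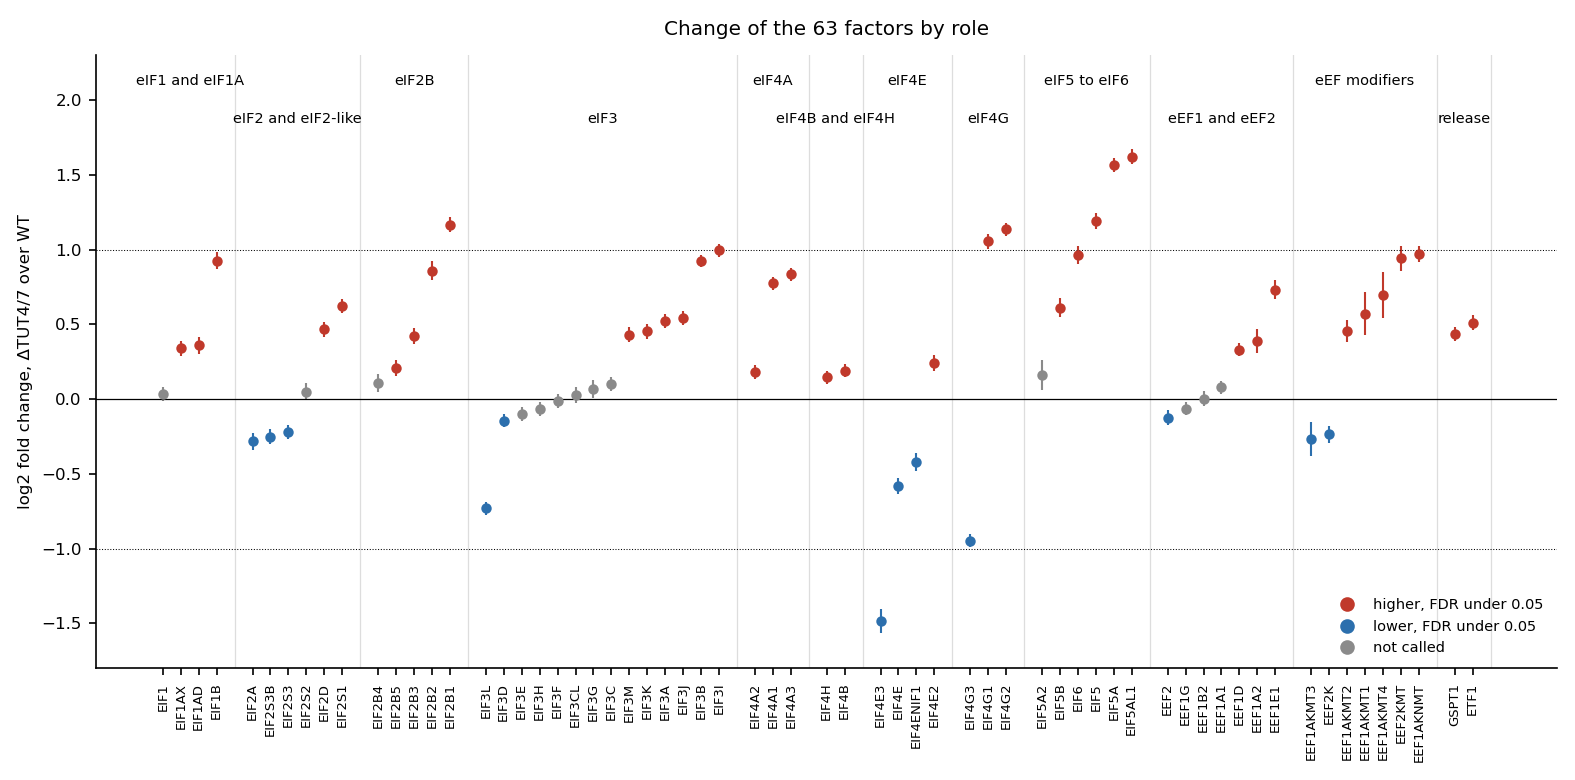
Points give the log2 fold change of each of the 63 factors in the libraries labelled ΔTUT4/7 over WT from the edgeR fit of all genes, with bars of 1 standard error, ordered within each role. Red marks the 38 factors that were higher and blue the 12 that were lower at an FDR under 0.05, grey the 13 that did not pass, and dotted lines mark a 2-fold difference.

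The 4 large groups differed in how evenly their members moved. Of the 11 genes named EIF2, 6 were higher and 3 lower, with a median log2 fold change of 0.21. Of the 14 genes of eIF3, 6 were higher and 2 lower, with a median of 0.09, and 6 did not pass. All 12 genes named EIF4 passed, 8 higher and 4 lower, with a median of 0.19 and a range from −1.48 to 1.14, the widest of the 4. Of the 14 genes named EEF, 8 were higher and 3 lower, with a median of 0.36. As shares, 54.5% of the eIF2, 42.9% of the eIF3, 66.7% of the eIF4 and 57.1% of the EEF genes were higher. The lower shares were 27.3%, 14.3%, 33.3% and 21.4%. Among the 12447 background genes 42.7% were higher and 31.7% lower, so the higher share of eIF3 was near that of the background. These background shares are also those to set beside the counts of each role below. The medians of the 4 groups depended on which genes the symbols bring in. Without the genes that are not subunits or factors of the named complex, the medians were −0.09 for the 4 genes of eIF2, 0.19 for 10 genes of eIF4 and 0.04 for the 6 elongation factors. The 4 genes of eIF2 were EIF2S1 (0.62), EIF2S2 (0.05), EIF2S3 (−0.22) and its near-identical copy EIF2S3B (−0.25). The negative sign of their median rests on counting both copies of that subunit, so it gives no direction for eIF2. Under library-size and upper-quartile scaling the median of eIF3 was −0.03 and −0.01, so no direction can be given for that group as a whole.

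**Figure D2:**
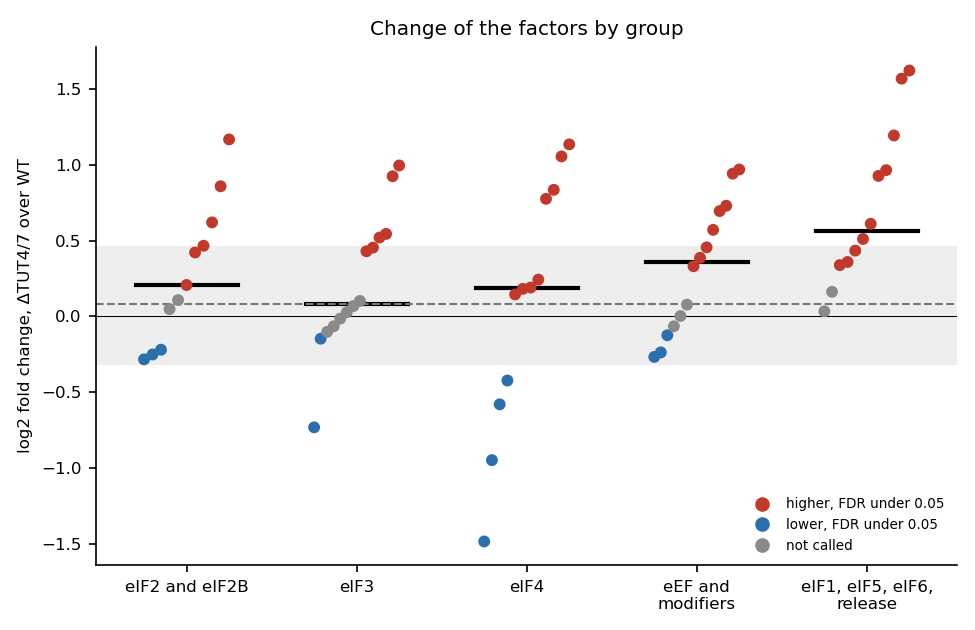
Each point is the log2 fold change of a factor in the libraries labelled ΔTUT4/7 over WT, with the group median as a black bar and the call as colour. The dashed line and grey band are the median (0.08) and the interquartile range of the 12447 background genes, and the eIF3 median of 0.09 lies on that line while the eIF4 genes spread beyond the band on both sides.

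Summed over a group, the RNA moved differently from the median. The 12 genes of eIF4 together took 4070 ± 46.9 CPM in WT and 6128 ± 3.17 CPM in the libraries labelled ΔTUT4/7 (SD, n = 3 each). The sum was 1.51 times as high and its 3 values per group did not overlap. The sum of eIF3 went from 3242 ± 26.2 to 3800 ± 65.6 CPM (SD, n = 3 each) and that of the eIF2 genes from 1394 ± 39.0 to 1494 ± 28.0 CPM. For the EEF genes, which are dominated by EEF1A1 and EEF2, the sums were 7834 ± 226 and 7852 ± 78.7 CPM, a difference smaller than the spread between replicates. The TMM-scaled sum of all tested genes itself went from 960786 CPM in WT to 1040888 CPM in ΔTUT4/7. That of the 12447 background genes went from 839125 to 937977 CPM. A small rise of a group's sum, such as that of the eIF2 genes, is thus no rise relative to other genes.

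Among the factors of start codon selection, eIF1 and eIF1A hold the scanning ribosome in an open state. EIF1, the main gene for eIF1, did not pass (log2 fold change 0.03 ± 0.05 SE, adjusted p = 0.543), but was 0.17 with an adjusted p of 0.00128 under the GC and length offset. EIF1B had 48.7, 47.8 and 48.3 CPM in the WT libraries and 86.0, 95.9 and 93.7 CPM in the libraries labelled ΔTUT4/7. The groups did not overlap and EIF1B, which encodes a near copy of eIF1, was 1.90-fold higher (log2 fold change 0.93 ± 0.06 SE, adjusted p = 4.88e-12). The ratio of EIF1B to EIF1 within a library rose from 0.110 to 0.123 in WT to 0.207 to 0.226 in ΔTUT4/7. EIF1AX, the eIF1A gene on the X chromosome, was 1.26-fold higher (0.34 ± 0.05) and EIF1AD 1.28-fold higher (0.36 ± 0.06).

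The subunits of eIF2, which form a complex with 1 copy of each, did not move together. EIF2S1 stood at 109.8, 115 and 113 CPM in WT and in the libraries labelled ΔTUT4/7 at 173, 180.0 and 166 CPM. EIF2S1, the alpha subunit that the stress kinases phosphorylate, was 1.54-fold higher (log2 fold change 0.62 ± 0.05 SE, adjusted p = 1.99e-10), with no overlap. EIF2S2, the beta subunit, did not pass (0.05 ± 0.06, adjusted p = 0.478). EIF2S3, the gamma subunit that binds GTP and tRNA, was 0.859-fold its WT level (−0.22 ± 0.05) and its near-identical intronless copy EIF2S3B 0.840-fold (−0.25 ± 0.05). Reads of EIF2S3 and EIF2S3B cannot be told apart with certainty, and their summed count gave −0.23, a difference that passed. Under the GC and length offset neither passed (EIF2S3 −0.04, adjusted p = 0.538, and EIF2S3B −0.07, adjusted p = 0.127). For EIF2A the values were 81.6, 86.6 and 83.8 CPM in WT and 67.5, 74.5 and 65.4 CPM in ΔTUT4/7. EIF2A, a separate protein that can bring initiator tRNA to some messages and is no subunit of eIF2, was 0.822-fold its WT level (log2 fold change −0.28 ± 0.06 SE, adjusted p = 0.000163). EIF2D, which acts in non-canonical initiation and in recycling, was 1.38-fold higher (0.47 ± 0.05).

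Among the 5 subunits of eIF2B, the exchange factor that returns eIF2 to its GTP form, 4 were higher and none was lower. EIF2B1 had 70.3, 72.3 and 62.8 CPM in the WT libraries and 153, 154 and 154 CPM in the libraries labelled ΔTUT4/7. The ΔTUT4/7 values were more than 2 times each WT value, and EIF2B1, the alpha subunit that bridges the complex, was 2.25-fold higher (log2 fold change 1.17 ± 0.05 SE, adjusted p = 6.2e-14). The median log2 fold change of the 20 expressed genes around EIF2B1 was 0.67. EIF2B2 (beta) was 1.81-fold higher (0.86 ± 0.06) and EIF2B3 (gamma) 1.34-fold higher (0.42 ± 0.06). The 2 remaining subunits moved least. EIF2B5, the catalytic epsilon subunit, was 1.15-fold higher (0.21 ± 0.05), a call lost under library-size scaling (adjusted p = 0.135), and EIF2B4 (delta) did not pass (0.11 ± 0.06, adjusted p = 0.146). EIF2B5 per EIF2S1 within a library was 0.608 ± 0.0240 in WT and 0.457 ± 0.0107 in ΔTUT4/7 (SD, n = 3 each), with no overlap. A two-sided exact permutation test of its log2 ratio gave p = 0.1, the smallest that 3 against 3 libraries allow.

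The eIF3 genes split by subunit, although the proteins assemble into a single particle. EIF3I stood at 174, 162 and 166 CPM in WT and in the libraries labelled ΔTUT4/7 at 330.4, 335 and 337 CPM. EIF3I, a WD40 subunit, was 1.99-fold higher (log2 fold change 1.00 ± 0.04 SE, adjusted p = 3.39e-14). EIF3B, which binds EIF3I and EIF3G in the module that contacts the start codon region, was 1.90-fold higher (0.92 ± 0.04), whereas EIF3G, the RNA-binding member of that module, did not pass (0.07 ± 0.06, adjusted p = 0.362). Of the 8 subunits of the octamer core (A, C, E, F, H, K, L and M), 3 were higher, 1 was lower and 4 did not pass, with a median of 0.04. For EIF3A the values were 490.3, 489 and 536 CPM in WT and 712, 743 and 719 CPM in ΔTUT4/7. EIF3A, the largest subunit and the scaffold of the octamer, was 1.43-fold higher (log2 fold change 0.52 ± 0.05 SE, adjusted p = 2.33e-09).

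EIF3L had 310.0, 324 and 328 CPM in the WT libraries and 196, 187 and 197 CPM in the libraries labelled ΔTUT4/7. These values did not overlap and EIF3L was 0.602-fold its WT level (log2 fold change −0.73 ± 0.04 SE, adjusted p = 5.56e-12), the only subunit of the octamer called lower at this FDR in the fit with TMM scaling. EIF3K, its direct partner at the edge of the octamer, moved the other way, at 1.37-fold (0.45 ± 0.05). EIF3M was 1.35-fold higher (0.43 ± 0.05) and EIF3J, a loosely bound subunit at the decoding site, 1.46-fold higher (0.54 ± 0.05). EIF3D, the subunit with a cap-binding surface of its own, was 0.903-fold its WT level (−0.15 ± 0.04).

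The members of eIF3 that did not pass were EIF3C (0.10 ± 0.05, adjusted p = 0.0668), EIF3CL (0.03 ± 0.06), EIF3E (−0.10 ± 0.05, adjusted p = 0.0660), EIF3F (−0.01 ± 0.04), EIF3H (−0.06 ± 0.05) and EIF3G. EIF3C and EIF3CL are near-identical copies whose reads can be shared, and their sum did not pass either (0.08, adjusted p = 0.109). EIF3E, EIF3F and EIF3H passed as lower under library-size scaling and had positive values under a correction for GC content and length, so no direction is given for them.

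**Figure D3:**
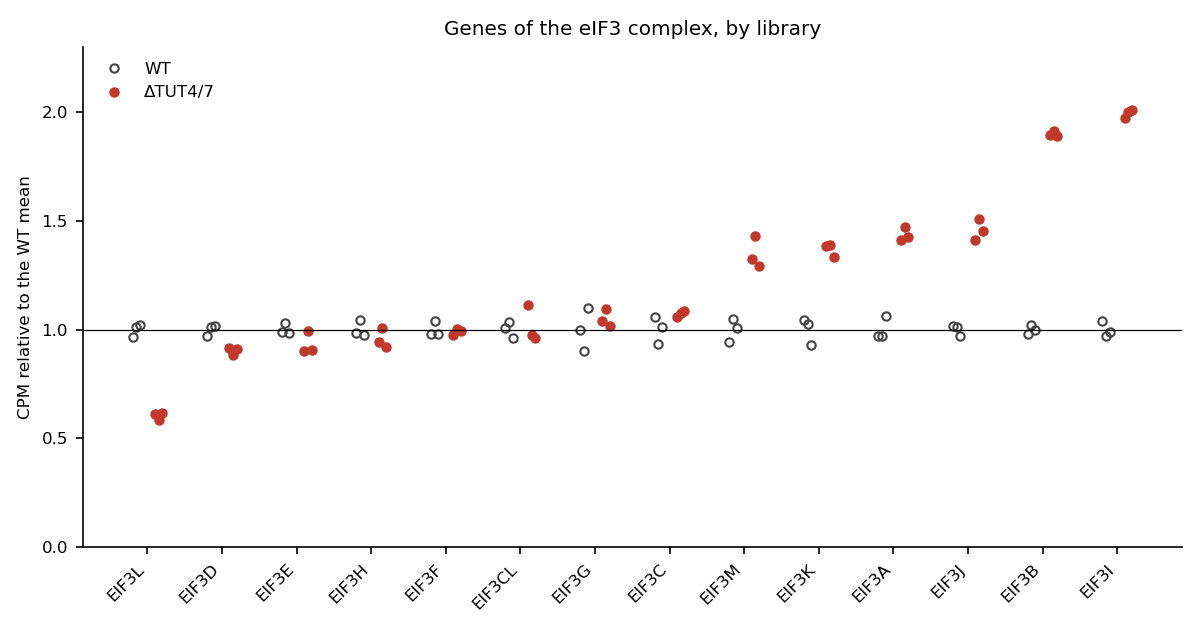
TMM-scaled CPM of the 14 eIF3 genes in each library, divided by the gene's WT mean, with open circles for the 3 WT and filled circles for the 3 libraries labelled ΔTUT4/7. EIF3L sits near 0.6 of its WT mean, EIF3B and EIF3I near 1.9 and 2.0, and the 7 genes from EIF3D to EIF3C lie close to 1.

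The eIF4 genes held the widest differences, and genes for the scaffold and for cap-binding proteins went in both directions: EIF4G1, EIF4G2 and EIF4E2 were higher and EIF4G3, EIF4E and EIF4E3 lower. EIF4G1 stood at 723, 644 and 735 CPM in WT and in the libraries labelled ΔTUT4/7 at 1473, 1428 and 1469 CPM. EIF4G1, the main scaffold of eIF4F, was 2.08-fold higher (log2 fold change 1.06 ± 0.05 SE, adjusted p = 8.67e-14). For EIF4G2 the values were 616, 633 and 605 CPM in WT and 1331, 1381 and 1359.9 CPM in ΔTUT4/7. EIF4G2 (also called DAP5), a relative that lacks the eIF4E-binding region and serves cap-independent initiation, was 2.20-fold higher (log2 fold change 1.14 ± 0.04 SE, adjusted p = 2.66e-15). EIF4G3 had 277, 259.9 and 271 CPM in the WT libraries and 144, 138 and 137 CPM in the libraries labelled ΔTUT4/7. EIF4G3, a paralog of EIF4G1 that binds eIF4E too, was 0.518-fold its WT level (log2 fold change −0.95 ± 0.04 SE, adjusted p = 1.15e-13). The 3 scaffold genes thus had no overlap between groups, and their summed level rose from 1588 ± 43.8 to 2953 ± 11.1 CPM (SD, n = 3 each).

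Of the 12 pairs compared within libraries, EIF4G3 per EIF4G1 differed most. EIF4G3 stood at 0.368 to 0.403 of EIF4G1 in the WT libraries and at 0.0932 to 0.0975 in those labelled ΔTUT4/7, a difference of the log2 ratio of −2.01. EIF4G2 and EIF4G1 kept close to each other, at 0.886 ± 0.0848 in WT and 0.932 ± 0.0325 in ΔTUT4/7 (SD, n = 3 each), and these ratios overlapped.

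EIF4E stood at 102, 105 and 92.9 CPM in WT and in the libraries labelled ΔTUT4/7 at 66.2, 68.1 and 66.3 CPM. EIF4E, the cap-binding subunit, was 0.669-fold its WT level (log2 fold change −0.58 ± 0.05 SE, adjusted p = 6.86e-09). For EIF4E3 the values were 38.8, 42.7 and 42.2 CPM in WT and 16.2, 13.1 and 14.6 CPM in ΔTUT4/7. EIF4E3, a homolog with an atypical cap pocket, was 0.358-fold its WT level (log2 fold change −1.48 ± 0.08 SE, adjusted p = 1.17e-12), the member with the lowest fold in the set. EIF4E2 had 54.8, 54.0 and 56.7 CPM in the WT libraries and 66.3, 66.7 and 62.8 CPM in the libraries labelled ΔTUT4/7. EIF4E2 (4EHP), which binds caps without recruiting eIF4G and represses its targets, was 1.18-fold higher (log2 fold change 0.24 ± 0.05 SE, adjusted p = 0.000554). EIF4ENIF1 (4E-T), which carries eIF4E to processing bodies and the nucleus, was 0.746-fold its WT level (−0.42 ± 0.06). Relative to EIF4E, EIF4E2 went from 0.514 to 0.611 in WT to 0.948 to 1.00 in ΔTUT4/7. The genes around the lower genes named here were low as well. The median log2 fold change of the 20 nearest expressed genes was −0.70 for EIF4E, −1.47 for EIF4E3 and −0.34 for EIF4ENIF1. The part of these neighbourhoods in the fall of EIF4E, EIF4E3 and EIF4ENIF1 was not tested.

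EIF4A3 stood at 124, 131 and 133 CPM in WT and in the libraries labelled ΔTUT4/7 at 230.1, 231 and 231 CPM. EIF4A3 is the helicase of the exon junction complex and no part of eIF4F, and it was 1.78-fold higher (log2 fold change 0.84 ± 0.04 SE, adjusted p = 8.01e-13). EIF4A1, the helicase of eIF4F, rose in parallel from 646 ± 26.6 to 1107 ± 9.98 CPM (SD, n = 3 each), 1.71-fold (0.78 ± 0.04), and the ratio of EIF4A3 to EIF4A1 overlapped between groups (exact permutation p = 0.3). EIF4A2, its close paralog, was only 1.13-fold higher (0.18 ± 0.04), and its ratio to EIF4A1 went from 0.567 ± 0.0212 to 0.375 ± 0.00706 (SD, n = 3 each). The readthrough gene SENP3-EIF4A1, which shares exons with EIF4A1, went from 2.42 to 7.86 CPM, beside 646 and 1107 CPM for EIF4A1. For EIF4B the values were 782, 803 and 867 CPM in WT and 944, 934 and 921 CPM in ΔTUT4/7. EIF4B, which stimulates the helicase, was 1.14-fold higher (log2 fold change 0.19 ± 0.05 SE, adjusted p = 0.00101) and EIF4H, its relative, 1.11-fold higher (0.15 ± 0.04). The calls of EIF4A2, EIF4B and EIF4H were lost under library-size scaling, with adjusted p of 0.243, 0.149 and 0.570, and that of EIF4H also without WT replicate 1 (adjusted p = 0.0527).

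Per kilobase of the reference transcript, the subunits of eIF4F stood far apart, and the gap between EIF4E and the other subunits widened. EIF4A1 was at 368 and 630 CPM per kb in WT and ΔTUT4/7, EIF4G1 at 130 and 269 and EIF4E at 41.2 and 27.6.

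**Figure D4:**
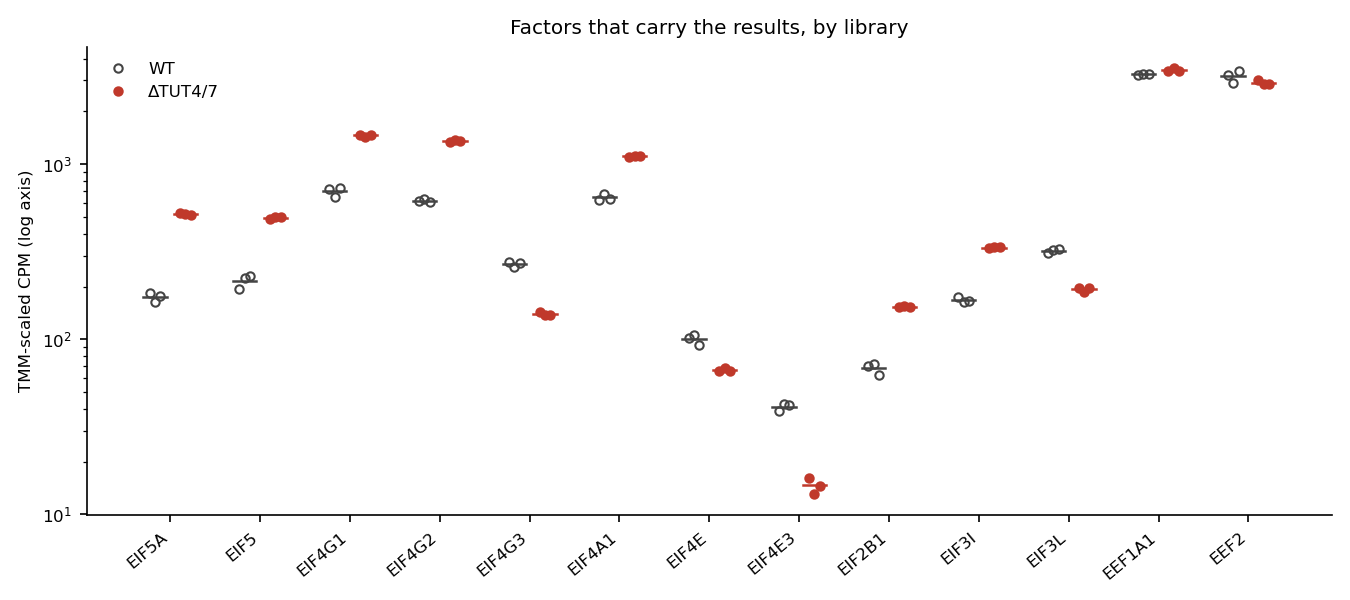
TMM-scaled CPM in each library on a log axis for 13 factors that carry the results, with open circles for WT, filled circles for the libraries labelled ΔTUT4/7 and bars for the group means. EIF5A, EIF5, EIF4G1, EIF4G2, EIF4A1, EIF2B1 and EIF3I are higher and EIF4G3, EIF4E, EIF4E3 and EIF3L lower with no overlap, while the groups of EEF2 overlap and those of EEF1A1 are close.

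Of the 6 genes of eIF5, eIF5A, eIF5B and eIF6, 5 were higher, with a median log2 fold change of 1.08 over the 6. These figures count EIF5A and its near-identical copy EIF5AL1 as separate genes, and EIF5A2 did not pass. EIF5 had 194, 223 and 231 CPM in the WT libraries and 484, 500.4 and 499 CPM in the libraries labelled ΔTUT4/7. EIF5, the activator of GTP hydrolysis by eIF2, was 2.29-fold higher (log2 fold change 1.19 ± 0.05 SE, adjusted p = 4.65e-13). EIF5B stood at 157, 141 and 172 CPM in WT and in the libraries labelled ΔTUT4/7 at 234, 250.2 and 234 CPM. EIF5B, the GTPase that joins the large subunit, was 1.53-fold higher (log2 fold change 0.61 ± 0.06 SE, adjusted p = 8.01e-07). For EIF6 the values were 28.0, 26.9 and 27.3 CPM in WT and 55.0, 52.1 and 53.1 CPM in ΔTUT4/7. EIF6, which keeps free large subunits from joining too early, was 1.95-fold higher (log2 fold change 0.97 ± 0.06 SE, adjusted p = 1.19e-11). The groups of EIF5, EIF5B and EIF6 were apart.

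The largest rise of any member was that of the eIF5A genes. eIF5A relieves ribosomes that stall at prolines and elsewhere, and it is the protein that carries the amino acid hypusine. EIF5A had 183, 164 and 176 CPM in the WT libraries and 524, 515 and 510.3 CPM in the libraries labelled ΔTUT4/7. EIF5A lies on the plus strand of chromosome 17 at 7306999 to 7312463 (hg38) and was 2.97-fold higher (log2 fold change 1.57 ± 0.05 SE, adjusted p = 9.45e-17). EIF5AL1 stood at 87.6, 80.7 and 76.6 CPM in WT and in the libraries labelled ΔTUT4/7 at 254, 251 and 247 CPM. EIF5AL1, an EIF5A-like gene of near-identical sequence on chromosome 10, was 3.08-fold higher (log2 fold change 1.62 ± 0.05 SE, adjusted p = 1.73e-16). As reads of the 2 can be shared, their sum was tested too and gave 1.58. The 20 expressed genes around EIF5A had a median log2 fold change of −0.01. EIF5A2, the inducible paralog, was low at 12.6 ± 0.780 and 14.1 ± 1.40 CPM (SD, n = 3 each) and did not pass (0.16 ± 0.10, adjusted p = 0.178), and its ratio to EIF5A dropped from 0.0728 ± 0.00868 to 0.0274 ± 0.00250.

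Of the 6 elongation factors themselves, which include the most abundant members, 2 were higher, 1 was lower and 3 did not pass. For EEF1A1 the values were 3239, 3277 and 3268 CPM in WT and 3404, 3522 and 3401 CPM in ΔTUT4/7. EEF1A1, the main gene of the tRNA carrier, did not pass (0.08 ± 0.04, adjusted p = 0.111) although all its ΔTUT4/7 values lay above those of WT. EEF1A1 passed in limma-voom (0.08, adjusted p = 0.00873) and in limma on log2 CPM (0.08, adjusted p = 0.0341), and under the GC and length offset its value was 0.36 (adjusted p = 2.5e-07). EEF2 had 3207, 2920.0 and 3408 CPM in the WT libraries and 3004, 2878 and 2868 CPM in the libraries labelled ΔTUT4/7. EEF2, the translocase, was 0.918-fold its WT level (log2 fold change −0.12 ± 0.05 SE, adjusted p = 0.0417), but its groups overlapped, and without WT replicate 3 the log2 fold change was −0.07 with an adjusted p of 0.227. The call of EEF2 also ended without WT replicate 1 or ΔTUT4/7 replicate 2 or 3. EEF1B2 (0.00 ± 0.05, adjusted p = 0.963) and EEF1G (−0.06 ± 0.04, adjusted p = 0.206), subunits of the exchange factor eEF1B, did not pass, while EEF1D, another of its subunits, was 1.26-fold higher (0.33 ± 0.04). EEF1A2, the tissue-restricted form of eEF1A, was 1.31-fold higher (0.39 ± 0.08). EEF1E1 stood at 35.6, 33.8 and 34.7 CPM in WT and in the libraries labelled ΔTUT4/7 at 56.0, 62.5 and 54.3 CPM. EEF1E1 (AIMP3), a scaffold of the multisynthetase complex that carries an eEF1 symbol, was 1.66-fold higher (log2 fold change 0.73 ± 0.06 SE, adjusted p = 2.34e-09).

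Per kilobase of the reference transcript, EEF2 (1006 CPM per kb) and EEF1A1 (929) led the WT libraries, followed by EEF1G (544), EIF4A1 (368) and EEF1B2 (262), and EIF5A2 (2.28) came last. In the libraries labelled ΔTUT4/7 EEF1A1 (980) and EEF2 (924) stood first, EIF4A1 (630) came ahead of EEF1G (520), and EIF5A rose from 138 to 409 CPM per kb. EEF1A1 and its processed pseudogene EEF1A1P5 are near copies: over the 6 libraries 493091 estimated counts went to EEF1A1 and 543560 to the pseudogene, which together with other EEF1A1 pseudogenes held 52.6% of the sum. The level of EEF1A1 is therefore uncertain, and its count summed with those of the pseudogenes gave a log2 fold change of 0.04. Pseudogenes also held 43.1% for EEF1B2, 37.1% for EIF2S2, 34.3% for EIF4E and 21.0% for EIF4A1, and with them included the values were 0.05, 0.05, −0.55 and 0.80.

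Of the 7 enzymes that act on the elongation factors, 5 were higher and 2 lower, with a median of 0.57. For EEF1AKNMT the values were 40.2, 38.3 and 37.6 CPM in WT and 75.1, 75.7 and 76.2 CPM in ΔTUT4/7. EEF1AKNMT (METTL13), which methylates eEF1A at its N terminus and at a lysine, was 1.96-fold higher (log2 fold change 0.97 ± 0.05 SE, adjusted p = 2.06e-12), and its groups were far apart. EEF2KMT, the lysine methyltransferase of eEF2, was 1.92-fold higher (0.94 ± 0.08). EEF1AKMT1, EEF1AKMT2 and EEF1AKMT4 were 1.49-, 1.37- and 1.62-fold higher, at WT means of 4.65, 23.4 and 3.47 CPM. EEF1AKMT3 had 8.81, 8.85 and 8.54 CPM in the WT libraries and 7.58, 6.96 and 7.15 CPM in the libraries labelled ΔTUT4/7. EEF1AKMT3 was 0.831-fold its WT level (log2 fold change −0.27 ± 0.11 SE, adjusted p = 0.0499), at the edge of the threshold, and leaving out any single library ended this call. EEF2K, the kinase that inactivates eEF2, was 0.849-fold its WT level (−0.24 ± 0.06).

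Both release factors were higher. ETF1 stood at 242, 256 and 226 CPM in WT and in the libraries labelled ΔTUT4/7 at 336, 364 and 331 CPM. ETF1 (eRF1), which reads the stop codons, was 1.43-fold higher (log2 fold change 0.51 ± 0.05 SE, adjusted p = 2.08e-08), and GSPT1 (eRF3a), its GTPase partner, was 1.35-fold higher (0.43 ± 0.05). Their ratio within a library overlapped between groups, at 1.26 ± 0.0726 GSPT1 per ETF1 in WT and 1.19 ± 0.0379 in ΔTUT4/7 (SD, n = 3 each). In all, 12 pairs of paralogs or partners were compared by their log2 ratio within each library, which no scaling can change. In 8 pairs the groups did not overlap, with exact permutation p = 0.1 each (0.15 after Benjamini-Hochberg adjustment over the 12), and in 4 they did: EIF4A3 per EIF4A1, EIF4G2 per EIF4G1, EIF4EBP1 per EIF4E and GSPT1 per ETF1.

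The classical TOP mRNAs among the members were taken as a list of 10: EEF1A1, EEF1A2, EEF1B2, EEF1D, EEF1G, EEF2, EIF3E, EIF3F, EIF3H and EIF4B. Of these, 3 were higher, 1 was lower and 6 did not pass, with a median log2 fold change of −0.01. Of the other 53 members, 35 were higher, 11 lower and 7 did not pass, with a median of 0.43. Under the GC and length offset 7 of the TOP list were higher and none lower, with a median of 0.21, and of the other 53 members 39 were higher and 5 lower, with a median of 0.56. To see which members have such a tract, the sequence around the start of each gene was read from RefSeq promoter entries on GRCh38.p14, which were found for 50 of the 63. The windows run 5′ to 3′ over 30 bases centred on the RefSeq start, which can differ from the gene start in the count table. Capitals mark a run of 5 or more pyrimidines that begins with C, follows a base other than C or T or lies at the start itself, and begins within 5 bases of it. Of the TOP list 6 members had an entry and 4 of these had a run, while EEF1G and EEF1B2 had none. A run by this rule is therefore not the same as being a TOP mRNA. No window of a lower member without a run is printed. Windows are shown for abundant members of the TOP list with a run (EEF1A1, EEF2 and EIF4B) and for lower members with one (EIF2S3, EIF3D and EIF2A). Also shown are a higher member with one (EIF3M) and higher members without (EIF5A, EIF4G1, EIF4A1 and EIF5).
EEF1A1 (chr6:73521018-73521047, minus strand): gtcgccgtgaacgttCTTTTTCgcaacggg
EEF2 (chr19:3985449-3985478, minus strand): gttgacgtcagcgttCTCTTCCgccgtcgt
EIF4B (chr12:53006441-53006470, plus strand): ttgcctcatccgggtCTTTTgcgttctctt
EIF2S3 (chrX:24054941-24054970, plus strand): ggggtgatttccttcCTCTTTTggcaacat
EIF3D (chr22:36529152-36529181, minus strand): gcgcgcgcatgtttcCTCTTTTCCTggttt
EIF2A (chr3:150546772-150546801, plus strand): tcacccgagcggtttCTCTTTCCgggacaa
EIF3M (chr11:32583816-32583845, plus strand): gcgcggcccagttccCTTTTCCggtcggcg
EIF5A (chr17:7306984-7307013, plus strand): atgggtgggaacccgaccacactagcgcgc
EIF4G1 (chr3:184314591-184314620, plus strand): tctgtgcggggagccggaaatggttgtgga
EIF4A1 (chr17:7572810-7572839, plus strand): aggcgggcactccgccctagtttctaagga
EIF5 (chr14:103334222-103334251, plus strand): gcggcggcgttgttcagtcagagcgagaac

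A run of this kind stood at the start of 17 of the 50 members (34.0%), beside 15.5% of all 27305 promoters and 17.6% of the 10027 promoters of background genes. Among members called higher 8 of 32 had one, among those called lower 6 of 10 (EIF2S3 and its near copy EIF2S3B counted separately), and among those not called 3 of 8. With the calls under the GC and length offset these counts were 11 of 38, 0 of 4 and 6 of 8, since the 6 lower members with a run (EEF2, EEF2K, EIF2A, EIF2S3, EIF2S3B and EIF3D) were no longer called. The 17 members with a run had a median log2 fold change of 0.10 and a range from −0.28 to 1.14, and the 33 without had a median of 0.51 and a range from −1.48 to 1.62. Under the offset the medians were 0.36 and 0.65. The windows printed were chosen with call and run known, so they cannot show whether a run goes with a direction. Among them EIF5A, EIF4G1, EIF4A1 and EIF5, which rose 1.71- to 2.97-fold, had none. EEF2, EIF2S3, EIF3D and EIF2A, at log2 fold changes of −0.12 to −0.28, had one, as did EIF3M and EIF4B, which were called higher. Other members went against that contrast too. EIF4E3 (−1.48), EIF4G3 (−0.95), EIF4E (−0.58) and EIF4ENIF1 (−0.42), the lowest members with a promoter entry, had no run. The 8 called higher with a run include EIF4G2, with a run of 7 pyrimidines, EIF2D, EIF3J, EIF3K and EIF3M.

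In the promoter entries (250 bases before to 50 after the start, both strands) the E-box CACGTG was found in 12 of 50 members (24.0%), beside 7.43% of all promoters and 10.2% of those of background genes. Those 12 include EIF4E, EIF4G1, EIF4A3 and EIF4B, and 8 of them were called higher and 2 lower. The ETS-type motif CCGGAAGT was found in 9 (18.0%), beside 4.44% and 9.1%, among them EIF2B1, EIF2B2, EIF3I and EIF6. GAANNTTC, part of a heat shock element, was found in 3 (EEF1A1, EIF4A2 and EIF5), or 6.0% beside 6.87% of all promoters and 4.55% of those of background genes. TGATGNAA, the CHOP-ATF4 type element, was found in none, beside 3.67% and 1.66%. The median log2 fold change was 0.31 with and 0.39 without CACGTG, and 0.36 with and 0.42 without CCGGAAGT.

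The members lie on 20 chromosomes, and each was set beside its neighbours. The median log2 fold change of the 10 expressed genes on each side (mean count of 50 or more) was subtracted from each member's own, which left a median of 0.16 over the 63. EIF5A (1.58 left), EIF4G1 (0.85), EIF4A1 (0.73) and EIF4G3 (−0.71) kept most of their difference. Other rises shrank: EIF3A was left with 0.10 of its 0.52, EIF2B1 with 0.49 of its 1.17 and EIF3I with 0.52 of its 1.00. EIF3B kept 0.53 of its 0.92, and EEF1A2 turned from 0.39 to −0.37. EIF4E3 was left with −0.01, EIF4E with 0.12 and EIF4ENIF1 with −0.09 of its −0.42, and EIF3L kept −0.30 of its −0.73.

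**Figure D5:**
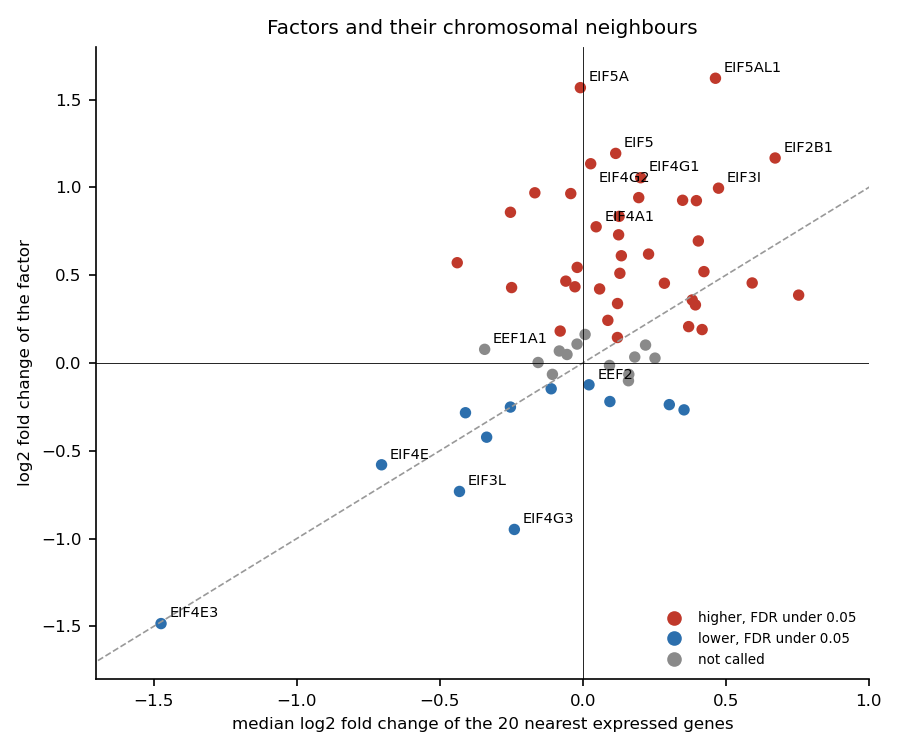
The log2 fold change of each factor against the median log2 fold change of its 20 nearest expressed genes, 10 on each side, with the call as colour and equality as a dashed line. EIF5A, EIF4G2 and EIF5 lie far above neighbours that are near 0, whereas EIF4E3 and EIF4E lie close to the line.

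The wider set of translation genes was taken from 4 lists of 61 tested genes in all. Of these 33 (54.1%) were higher and 17 (27.9%) lower, with a median log2 fold change of 0.15. Among all tested genes 28.6% were higher and 29.0% lower, and among the 12447 protein-coding background genes 42.7% and 31.7%. The shares of the background genes are those to set beside the counts of each list. Scaling by library size gave 23 higher and 23 lower, the upper quartile 25 and 20, and the GC and length offset 42 and 13, so the excess of higher calls depends on the scaling. Partners of initiation were the most uniform, with 7 of 8 higher and none lower. DENR, which with MCTS1 acts in reinitiation, rose from 141 to 273 CPM (0.95), BZW1, an eIF5 mimic, from 149 to 285 CPM (0.93), and ABCE1, which splits ribosomes after termination, from 212 to 324 CPM (0.61). The 20 genes around DENR had a median of 0.68. Among 25 regulators 12 were higher and 7 lower, and the 3 largest were MKNK2, a kinase of eIF4E (78.6 to 44.8 CPM, −0.81), PAIP1, a partner of poly(A)-binding protein (32.7 to 48.2 CPM, 0.56), and EIF4EBP3, an eIF4E-binding protein at under 1 CPM (−0.98, adjusted p = 0.0485).

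Of 18 tested partners of elongation and release, 9 were higher and 6 lower, beside 42.7% and 31.7% of the background genes. Hypusine is made on eIF5A by DHPS and then DOHH, and the mRNAs of the enzymes moved apart: DHPS went from 49.3 to 26.0 CPM (−0.92) and DOHH, a low gene, from 3.48 to 8.30 CPM (1.26). DPH2, which starts the diphthamide on eEF2, rose from 24.1 to 63.8 CPM (1.40). Of the 7 genes listed for diphthamide 4 were called higher, none was called lower and 3 did not pass. Those 3 include DNAJC24 (−0.15, adjusted p = 0.0503) and DPH6 (−0.25, adjusted p = 0.0538), which lay below WT with no overlap. Of 10 factors of mitochondrial translation, 5 were higher and 4 lower, with TSFM at 1.09, TUFM at 0.73 and MTRF1 at −1.02, the last among neighbours with a median of −0.97. Of the 63 members, 32 overlap another gene, most often on the opposite strand, and since the strand setting of the counting is not given in the sources used here, reads from such pairs cannot be told apart.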

How the data were processed

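Total RNA of 3 WT and 3 ΔTUT4/7 HEK 293T cultures was depleted of ribosomal RNA, and the authors sequenced it in pairs of reads. Per the labels, reads were aligned to hg38 with STAR 2.7.3a in Partek 10.0.22. The deposited table held estimated counts per Ensembl gene, which the authors obtained with an expectation-maximisation model that shares reads among overlapping or similar genes, and 45.2% to 50.0% of the values of a library were not whole. A deposited list of the authors' own comparison (p-values, FDR, ratios, fold changes and group means) was not used.

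The estimated counts were rounded, genes whose largest count was not above 12 were left out, and the other 23952 were fitted with edgeR 4.0.16 (R 4.3.3; TMM scaling, robust quasi-likelihood, no term but group), and p-values were adjusted over all of them by the Benjamini-Hochberg method. The biological coefficient of variation was 6.44%. CPM are TMM-scaled, errors are SD between the 3 libraries of a group, and SE is that of the log2 fold change. The depth of 18757228 to 33148937 counts per library puts the lowest member at a mean count of 110.5. The fit was tested on simulated counts. Levels per kilobase used the MANE Select transcript of GENCODE release 44.

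All members could be named. Values per library are given for the called member with the largest rise and fall in each role and for EIF2S1, EIF3A, EIF4E, EIF4G1, EEF1A1 and EEF2, and other genes of translation are named where they were among the 3 largest called changes of their list. EIF5A, EIF4A1 and the promoter windows printed were chosen with their values known, as were the members and all lists, since earlier results of these data were known. Ratios were compared by two-sided exact permutation tests. Protein sequences were not used here. Alternatives were other scalings, filters and tests (DESeq2 1.42.0, limma 3.58.1), a replicate block, leaving out each library, a GC and length offset, sums with pseudogenes and subtraction of neighbouring genes. Sums of near-identical copies, the background at a mean count of 1000 and the counts of TOP-list members and of pyrimidine runs under the GC and length offset were added after seeing the data.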

Additional observations from a re-analysis of the deposited data

How the results depend on the processing

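Of the 63 members, 37 kept 1 call in every alternative that gave a test, apart from that against a 1.5-fold minimum (30 higher, 4 lower and 3 not called). Over those alternatives the count of members called higher ranged from 34 to 46 and that of members called lower from 5 to 16. Leaving out each library in turn gave 38 to 39 higher and 10 to 11 lower members, 5 to 8 and 1 of at least 2-fold, 29 to 33 higher and 15 to 19 lower genes of the other lists, and medians of 0.19 to 0.24 (eIF2), 0.054 to 0.13 (eIF3), 0.17 to 0.21 (eIF4) and 0.33 to 0.36 (eEF). The log2 ratios of the 12 pairs kept their direction in each of these.

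An offset for GC content and length gave 46 higher and 5 lower members (38 and 12 without it), 12 higher by at least 2-fold, and medians of 0.38 (eIF2), 0.28 (eIF3), 0.38 (eIF4) and 0.40 (eEF), with the median of all genes at 0.09. It turned EIF3E to 0.14, EIF3F to 0.27 and EIF3H to 0.13, and the cause was not tested. Library-size scaling gave medians of 0.093, −0.029, 0.071 and 0.24 in the same order, upper-quartile scaling 0.11, −0.015, 0.086 and 0.26, and a minimum mean count of 50 for the fit 0.14, 0.022, 0.12 and 0.30, each with 2 members at least 2-fold lower. A test against a 1.5-fold minimum called 16 higher and 3 lower. Summing near-identical copies gave 0.31 for eIF2. Keeping subunits and factors alone gave −0.085 for eIF2, with EIF2S3 and its copy EIF2S3B both counted, and 0.041 for eEF.

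Subtracting the neighbouring genes left medians of 0.13 (eIF2), 0.14 (eIF4) and 0.048 (eEF) and turned EEF1A2 to −0.37, EEF1AKMT2 to −0.14, EEF1D to −0.063, EIF1AD to −0.024, EIF2A to 0.13, EIF2B5 to −0.16, EIF2S3B to 0.0018, EIF4B to −0.23 and EIF4E to 0.12, by construction. The replicate numbers did not pair the libraries: same-numbered WT and ΔTUT4/7 libraries had deviations that correlated at 0.052, −0.011 and −0.022, and the replicate block gave 39 higher and 12 lower members. Depth limits the members under 10 CPM, the EEF1AKMT genes above all.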
